A study of Homo sapiens with 16 samples.

Results

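Complement regulators and components were followed in Caco-2 cells, a human colon carcinoma line that grows as an intestinal epithelium. The genes were chosen by name: the membrane regulators CD46, CD55 and CD59, the soluble regulators CFI and SERPING1, and the components C3 and C5. These 7 genes are represented by 15 of the 41000 probes on the arrays that are not controls. All 15 were tested, among 40982 probes with 30971 gene names in all. Values are given probe by probe, because CD46, CD55, CD59 and CFI have more than 1.

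The study asked how gliadin, the wheat protein that drives celiac disease, affects gene expression in enterocytes. Undifferentiated Caco-2 cells, on the third day after seeding, were stimulated for 6 h in minimum essential medium with 1% fetal calf serum. PT-G cells received gliadin digested with pepsin and trypsin, PT cells the same enzymes put through the procedure without any protein, and p31-43 cells a synthetic gliadin peptide at 150 µg/ml. MED-CTL cells stayed in the medium alone. Every condition has 4 arrays, and the study describes 4 independent experiments. The conditions share the line, the medium and the time point, and a carcinoma line in its undifferentiated state stands in for the enterocyte. The arrays fall into 4 runs by the date in the scanner output, with 1 array of each condition in a run. The labels do not say that a run is an experiment, and MED-CTL replicates 1 and 2 lie in runs 2 and 1, so results are also given with the labels' replicate numbers as a block. The 16 arrays lay on 5 slides, and runs 3 and 4 share slide 5, which carries PT of run 3 and p31-43 of run 4.

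Complement is a cascade of plasma and tissue proteins that marks surfaces for uptake and punches pores in membranes. Its classical, lectin and alternative routes meet at C3, whose cleavage leads on to C5 and the membrane attack complex. Host cells protect themselves with surface proteins that inactivate or dismantle the convertases and with one that blocks the pore, and the gut epithelium carries these regulators and also makes some components itself.

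The promoters of CD55 and CD59 are shown because only these 2 genes have a probe that passed a test against MED-CTL in PT-G or PT cells once the run was taken into account. The 250 bases before the outermost RefSeq start of each gene (GRCh38.p14, read 5′ to 3′ on the gene's strand) are as follows, CD55 from chr1:207321428-207321677 on the plus strand and CD59 from chr11:33736480-33736729 on the minus strand.
CD55: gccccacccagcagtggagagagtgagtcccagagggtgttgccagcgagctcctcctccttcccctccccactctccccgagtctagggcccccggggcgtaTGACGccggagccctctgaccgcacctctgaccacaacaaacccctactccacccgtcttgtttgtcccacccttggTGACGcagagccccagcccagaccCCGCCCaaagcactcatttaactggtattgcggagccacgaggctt
CD59: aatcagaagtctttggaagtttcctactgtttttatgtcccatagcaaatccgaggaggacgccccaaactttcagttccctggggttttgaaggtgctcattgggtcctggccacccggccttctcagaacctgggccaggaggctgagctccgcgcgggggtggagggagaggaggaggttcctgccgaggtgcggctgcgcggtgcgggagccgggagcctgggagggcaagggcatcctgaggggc
Capitals mark every match, on both strands, to 4 motifs: TGANTCA for AP-1, TGACG for the half-site of the cAMP response element, GCGNGGGCG for EGR and GGGCGG for the SP1 box. None of these matches overlapped another. CD55 holds TGACG 2 times, 147 and 70 bases before the start, and the SP1 box on the minus strand 46 bases before it. The printed CD59 window holds none of the 4. RefSeq gives 3 further CD59 starts inside the gene. The window before one of them holds the SP1 box 2 times, 60 and 47 bases before the start, that before another holds TGANTCA 2 times, 117 and 23 bases before it, and that before the third holds none. Over 35116 RefSeq promoter windows of the same length, TGANTCA is in 6.57%, TGACG in 21.2%, GCGNGGGCG in 8.41% and GGGCGG in 42.6%. Of the 7 genes, 5 have a promoter in the table. The window before the outermost start of CD46 holds TGACG 1 time and the SP1 box 2 times, that of C5 holds TGACG 1 time, and that of CFI none of the 4. C3 and SERPING1 have no entry.

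The arrays give intensities, and their precision is limited by their number. Median intensities ran from 153 to 410 over local backgrounds of 48 to 65, and 27660 to 33947 spots per array were well above background. No member spot was saturated or marked as an outlier. The 7 epithelial marker genes (EPCAM, CDH1, KRT8, KRT18, KRT19, VIL1 and CDX2) each had a probe well above background on all 16 arrays. The lists for other cell types were not silent. Of 5 leukocyte genes, 4 had a probe well above background on all 16 arrays (CD3E, CD79A, CD14 and ITGAM) and PTPRC, the pan-leukocyte marker, was on none. The same held for 3 of 4 fibroblast genes (COL1A1, COL3A1 and PDGFRB) and for 2 of 4 endothelial genes (PECAM1 and VWF), with CDH5 on none. The summed intensity of the leukocyte list ran from 1780 to 2890 in MED-CTL, 1670 to 2390 in p31-43, 1820 to 2620 in PT and 1610 to 2080 in PT-G, so the conditions overlap. The fibroblast list ran from 1110 to 1870 and the endothelial list from 577 to 868 over all conditions. The part of these genes in the results was not tested.

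The membrane regulators were the best measured members. The CD55 and CD59 probes annotated to the main transcripts, 6 in all, and 2 of 3 CD46 probes were well above background on all 16 arrays, as were the single probes of C3 and C5. SERPING1 was above it on 15 arrays and the CD55 splice form on 15. A dim CD46 probe was above it on 8 arrays, those of runs 3 and 4, and the CFI probes on 3 and on 0. CFI has only a bound in these cells. Since probes differ in how brightly they label, no level is compared between probes.

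No member probe passed the nominal threshold of p under 0.01 in limma in any comparison when the 4 conditions alone were modelled. This was 0 of 15 for PT-G against MED-CTL, where 3.43% of all probes passed, 0 of 15 for PT against MED-CTL, where 3.64% passed, 0 of 15 for p31-43 against MED-CTL, where 0.403% passed, and 0 of 15 for PT-G against PT, where 0.0903% passed. At an unadjusted p under 0.05 the count was also 0 in each, where 7.94%, 8.95%, 2.15% and 0.761% of all probes passed in the same order. In no comparison did all 4 arrays of a condition lie clear of the other 4 for a member, which occurred for 3.86%, 5.04%, 1.37% and 0.661% of all probes in the same order. The median log2 difference over the 15 was -0.013, -0.068, -0.001 and 0.03, beside -0.006, -0.012, -0.003 and 0.01 over all probes tested. PT-G, PT and p31-43 share the MED-CTL arrays, so their comparisons are not independent.

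**Figure D1:**
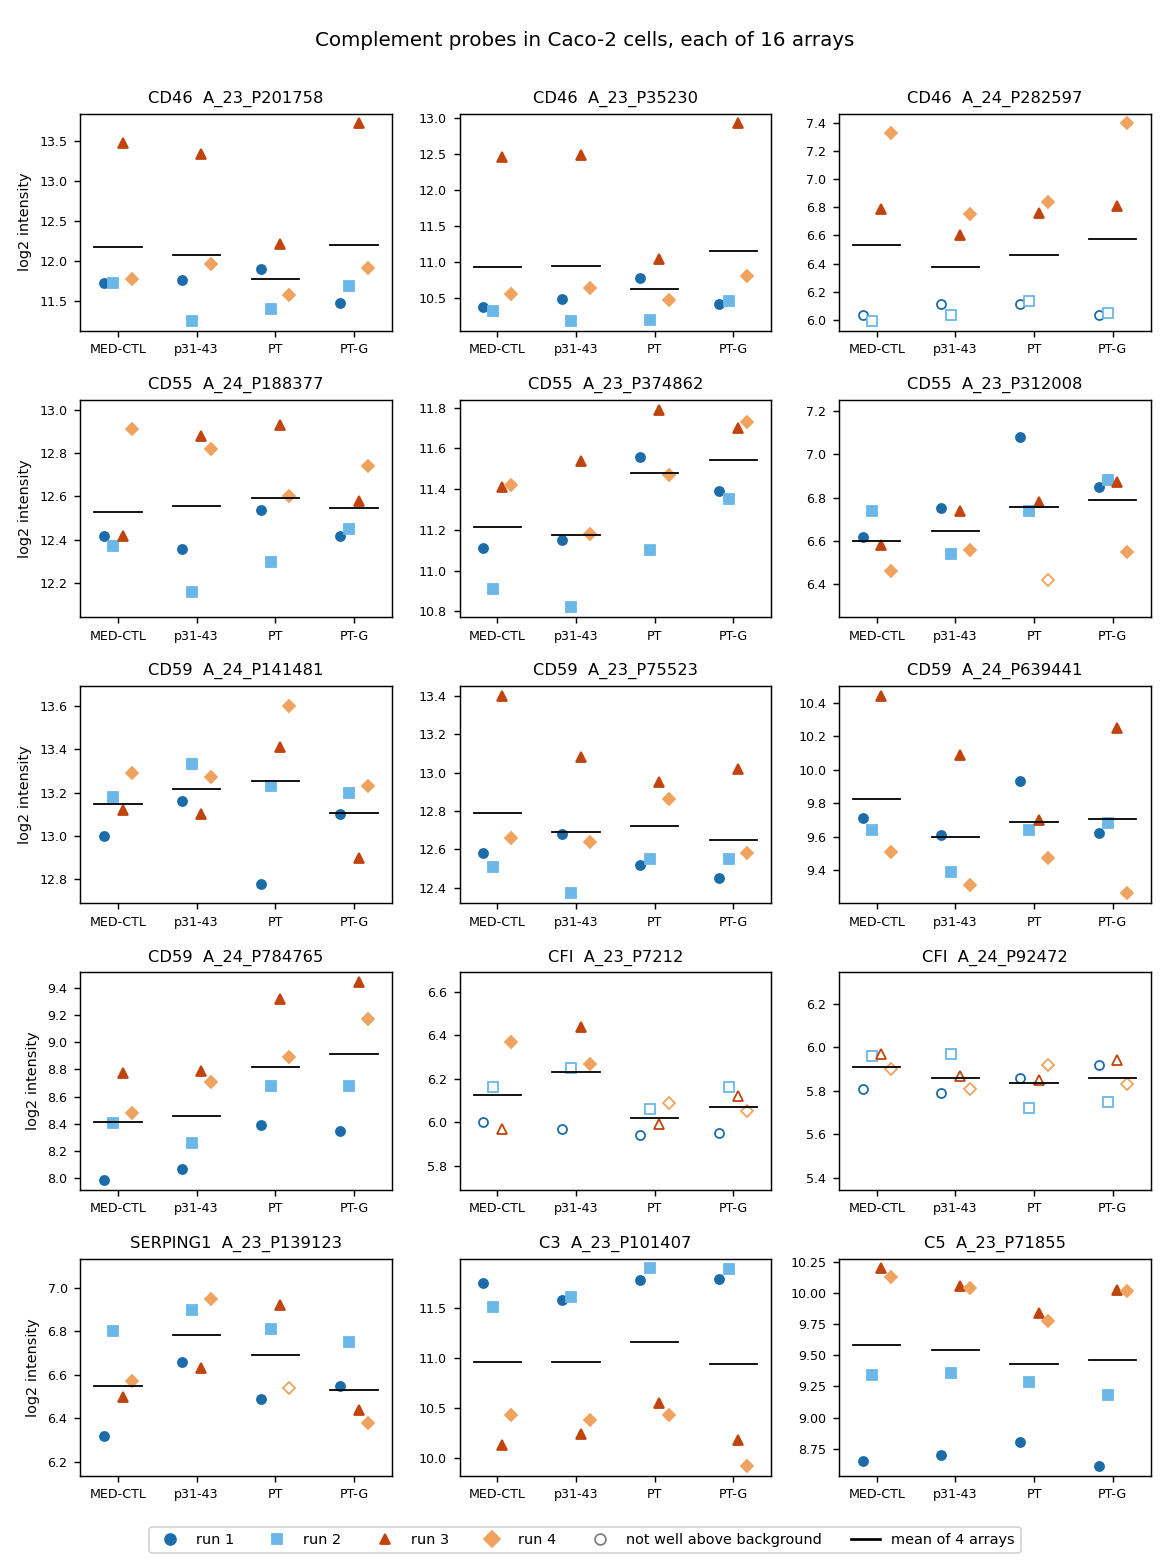
Log2 intensity (vertical axis, its own range in each panel) of the 15 complement probes in the 4 conditions, with 1 symbol per array shaped and coloured by run, open where the spot was not well above background, and a bar at the mean of 4 arrays. Runs separate further than conditions for C3, C5 and CD46, and for CD59 A_24_P784765 every run is higher in PT-G and PT than in MED-CTL.

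For several members the runs differed more than the conditions. Adding the run to the model as a block, which compares arrays within a run, reduced the residual SD of C5 from 0.65 to 0.11 on the log2 scale, that of C3 from 0.84 to 0.18, and that of CD59 A_24_P784765 from 0.39 to 0.11. Under the run block, 2 of 15 member probes passed the nominal threshold for PT-G against MED-CTL, both higher, where 4.9% of all probes passed as higher and 9.11% in either direction. For PT against MED-CTL the same 2 of 15 passed as higher, where 4.71% of all probes did so and 10.2% passed in either direction. The 2 probes are the most 3′ ones of CD59 and of CD55. None of the 15 passed for p31-43 against MED-CTL or for PT-G against PT with this block, where 1.38% and 0.322% of all probes passed. At an unadjusted p under 0.05 the blocked model gave the same 2 of 15 for PT-G, 2 of 15 for PT, 1 of 15 for p31-43, SERPING1, and 0 of 15 for PT-G against PT. The shares of all probes at that threshold were 17.6%, 21%, 6.02% and 3.52%.

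CD59, protectin, is a lipid-anchored protein that blocks assembly of the membrane attack complex (chr11:33703010-33736479 on the minus strand, GRCh38). Its 4 probes differed in response. On the most 3′ probe, A_24_P784765, the log2 intensity in runs 1 to 4 was 7.99, 8.41, 8.77 and 8.48 in MED-CTL. It was 8.35, 8.68, 9.44 and 9.17 in PT-G and 8.39, 8.68, 9.32 and 8.89 in PT. It was 8.07, 8.26, 8.79 and 8.71 in p31-43. The conditions overlap when runs are ignored, since run 1 was the lowest in each of them, but within every run PT-G and PT both exceeded MED-CTL.

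The rise over MED-CTL in runs 1 to 4 was 0.36, 0.27, 0.67 and 0.69 in PT-G and 0.40, 0.27, 0.56 and 0.41 in PT. Over the 4 runs PT-G stood 0.50 above MED-CTL on the log2 scale, or 1.41-fold (SE 0.26, 95% interval -0.06 to 1.06, limma adjusted p = 0.739). Under the run block the same difference had an SE of 0.08 and a limma adjusted p of 0.00474, at a nominal p of 6.74e-05. PT stood 0.41 above MED-CTL, or 1.33-fold (SE 0.26, limma adjusted p = 0.741, and 0.0132 under the run block). Without PT-G replicate 3 the PT-G difference was 0.32, and without PT replicate 3 the PT difference was 0.24, both in the model without a block. Both fits kept MED-CTL of run 3, the highest MED-CTL array on this probe, so the runs were not balanced. The replicate numbers of the labels as a block gave limma adjusted p-values of 0.0434 for PT-G and 0.0856 for PT.

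PT-G and PT themselves could not be separated on this probe, with a difference of 0.09 (95% interval -0.47 to 0.65, and -0.09 to 0.27 under the run block). p31-43 was 0.05 above MED-CTL (95% interval -0.13 to 0.23 under the run block), higher in 3 of 4 runs. Whether the p31-43 difference was smaller than that of the enzyme-treated cells was not tested.

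The other 3 CD59 probes lay 2832 to 6814 bases 5′ of it in the coordinates of the array design, which name no genome build. None of them rose in PT-G, where their differences from MED-CTL were -0.04 for A_24_P141481, -0.14 for A_23_P75523 and -0.12 for A_24_P639441 (SE 0.14 to 0.24, limma adjusted p = 1 for each). A_24_P141481 is the most 5′ and the brightest of them. It read 13.00, 13.18, 13.12 and 13.29 in MED-CTL and 13.10, 13.20, 12.90 and 13.23 in PT-G, run by run. In PT it read 12.78, 13.23, 13.41 and 13.60, and in p31-43 13.16, 13.33, 13.10 and 13.27. On this probe the 4 conditions covered one another, with means between 13.11 and 13.25.

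The disagreement between the CD59 probes was tested on the difference between 2 probes within each array. The most 3′ probe gained 0.63 on A_23_P75523 from MED-CTL to PT-G, and in each of the 4 runs by 0.49, 0.22, 1.04 and 0.78. A 2-sided exact permutation test over arrays gave p = 0.0571, where the smallest possible p is 0.0286, and 0.342 after Benjamini-Hochberg adjustment over the 16 such comparisons of CD59 and CD55. In limma the pairs were fitted and adjusted together with all probes, not over the 16 comparisons alone. The same change had a limma adjusted p of 0.176, and of 0.0183 under the run block. Against A_24_P141481 and A_24_P639441 the gain in PT-G was 0.54 and 0.62, with limma adjusted p-values of 0.0638 and 0.0523 under the run block. In PT the gains over the 3 probes were 0.30 to 0.55, and the smallest run-blocked limma adjusted p was 0.0597. In run 3, where PT and MED-CTL lay on different slides, the PT gain was 1.00 over A_23_P75523 and 1.29 over A_24_P639441. In the other runs it was 0.46, 0.23 and 0.21, and 0.18, 0.26 and 0.46. Over A_24_P141481 the run 3 gain was 0.26. On slide 3, which carries MED-CTL of run 3, A_23_P75523 averaged 13.17 against 12.61 elsewhere, and A_24_P639441 10.26 against 9.57, both without overlap. After the limma adjustment with all probes, 1 pair in PT-G passed, with the runs in the model. These pairs were chosen for testing after the values had been seen.

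Averaged over its 4 probes, CD59 was 0.05 above MED-CTL in PT-G (SE 0.15, limma adjusted p = 1). On A_24_P639441 runs 1 to 4 read 9.71, 9.64, 10.44 and 9.51 in MED-CTL and 9.61, 9.39, 10.09 and 9.31 in p31-43. They read 9.93, 9.64, 9.70 and 9.47 in PT and 9.62, 9.68, 10.25 and 9.26 in PT-G. The probe was lower in p31-43 than in MED-CTL in all 4 runs, with differences of -0.10, -0.25, -0.35 and -0.20, and 8.67% of all probes were lower in every run. Its mean difference of -0.22 did not pass (SE 0.24, limma adjusted p = 1, and 0.806 under the run block). With slides blocked in limma the difference was -0.27 and passed the nominal threshold at a p of 0.00318 (limma adjusted p = 0.221).

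**Figure D2:**
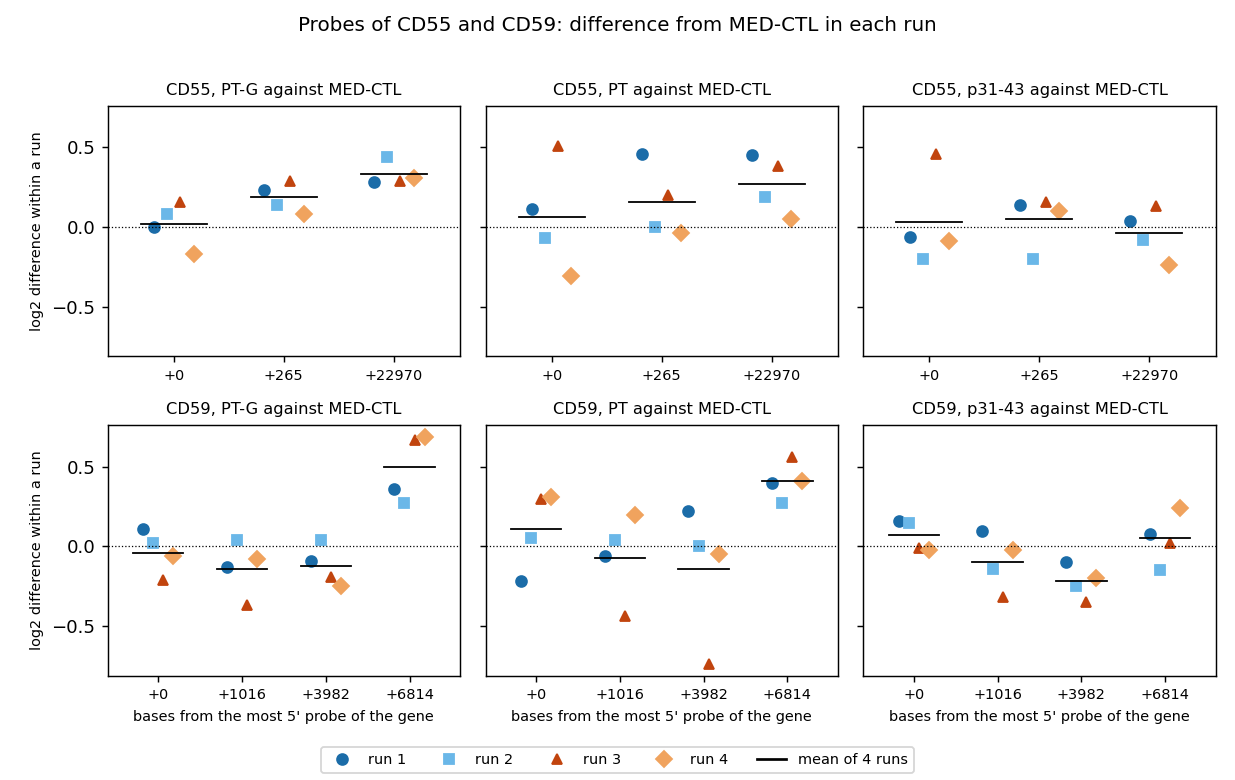
Log2 difference from MED-CTL within each run (vertical axis) for the probes of CD55 and CD59, ordered by their distance in bases from the most 5′ probe of the gene (horizontal axis), with a symbol per run and a bar at the mean of 4 runs. The most 3′ probe of each gene is above 0 in every run of PT-G and PT, and the most 5′ probe is not.

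CD55, decay-accelerating factor, speeds the breakdown of the C3 and C5 convertases on the cell that carries it (chr1:207321678-207360966 on the plus strand, GRCh38). Its most 3′ probe, A_23_P374862, read 11.11, 10.91, 11.41 and 11.42 in MED-CTL in runs 1 to 4. It read 11.39, 11.35, 11.70 and 11.73 in PT-G, 11.56, 11.10, 11.79 and 11.47 in PT, and 11.15, 10.82, 11.54 and 11.18 in p31-43. Each run was higher in PT-G than in MED-CTL, by 0.28, 0.44, 0.29 and 0.31, and in PT by 0.45, 0.19, 0.38 and 0.05.

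The mean difference of this probe was 0.33 in PT-G, or 1.26-fold (SE 0.18, 95% interval -0.05 to 0.71, limma adjusted p = 0.751). Under the run block the SE was 0.08 and the adjusted p 0.0403. The replicate numbers of the labels as a block gave a limma adjusted p of 0.12, at a nominal p of 0.00843. In PT the difference was 0.27, or 1.20-fold (SE 0.18, limma adjusted p = 0.751, and 0.0814 under the run block, at a nominal p of 0.00743). It did not pass with the replicate numbers as a block (limma adjusted p = 0.191). Without PT replicate 3 the PT difference was 0.17 in the model without a block, where MED-CTL of run 3 was kept and the runs were not balanced. In p31-43 the probe differed by -0.04 (95% interval -0.22 to 0.14 under the run block), and PT-G and PT differed by 0.06 (-0.12 to 0.24).

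The most 5′ CD55 probe, A_24_P188377, is 22970 bases away and the brightest of the gene. It read 12.42, 12.37, 12.42 and 12.91 in MED-CTL and 12.42, 12.45, 12.58 and 12.74 in PT-G, a mean difference of 0.02 (SE 0.18, limma adjusted p = 1). In PT it read 12.54, 12.30, 12.93 and 12.60, and in p31-43 12.36, 12.16, 12.88 and 12.82. The runs went both ways in all 3 stimulations. The change of the 3′ probe relative to the 5′ probe was 0.31 in PT-G and 0.21 in PT, with limma adjusted p-values of 0.0755 and 0.22 under the run block.

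The splice-form probe of CD55, A_23_P312008, ranged from 6.42 to 7.08 over the 16 arrays and was higher than MED-CTL in 4 of 4 runs in PT-G (mean difference 0.19, SE 0.12, limma adjusted p = 0.896, and 0.304 under the run block). Over all members, 5 of 15 probes were higher in every run in PT-G and 1 of 15 was lower in every run, beside 13.7% and 14.9% of all probes. The 5 were A_23_P374862 and A_23_P312008 of CD55, A_24_P784765 of CD59, and A_23_P35230 and the dim A_24_P282597 of CD46. The brightest CD46 probe was higher in 2 runs and lower in 2. For PT, 2 of 15 were higher in every run and none lower, beside 10.8% and 13.8%.

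**Figure D3:**
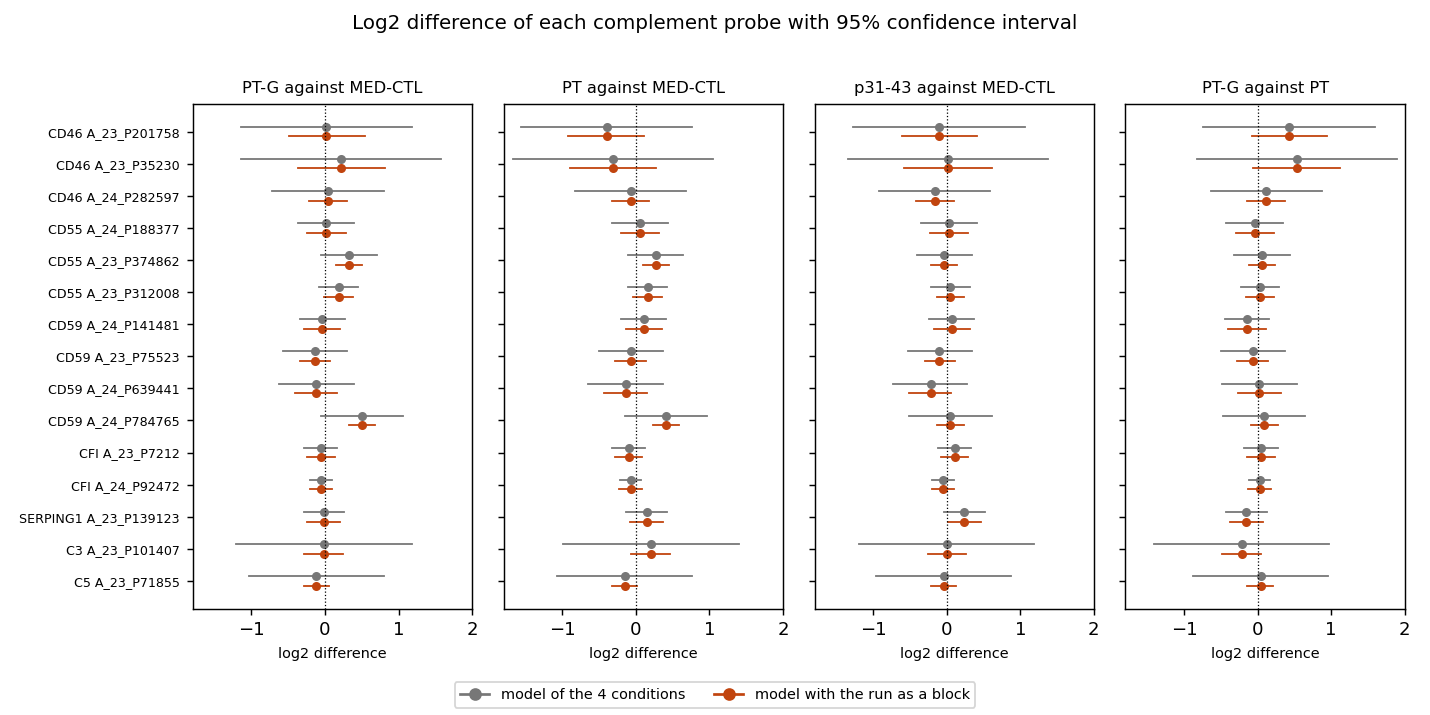
Log2 difference (horizontal axis) of each of the 15 complement probes in the 4 comparisons, as points with 95% confidence intervals, from the model of the 4 conditions (grey) and from the model that adds the run (orange). The orange intervals exclude 0 for CD59 A_24_P784765 and CD55 A_23_P374862 in PT-G and PT and for SERPING1 in p31-43, while every grey interval includes 0.

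CD46, membrane cofactor protein, assists the cleavage of deposited C3b and C4b by factor I (chr1:207752038-207795516 on the plus strand, GRCh38). Its 2 bright probes were set apart by 3 arrays of run 3. On A_23_P201758 runs 1 to 4 read 11.73, 11.73, 13.47 and 11.78 in MED-CTL. They read 11.76, 11.25, 13.34 and 11.96 in p31-43, 11.90, 11.40, 12.21 and 11.58 in PT, and 11.48, 11.69, 13.72 and 11.91 in PT-G. MED-CTL, p31-43 and PT-G of run 3, which lie on slide 3, were the 3 highest arrays, and PT of run 3, which lies on slide 5, came next.

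The slide 3 arrays averaged 13.51, against 11.72 over the other 13 arrays, a difference of 1.79 or 3.45-fold. On the second bright probe, A_23_P35230, which lies 26580 bases further 5′ and is annotated to another CD46 transcript, they averaged 12.62 against 10.51. A difference of slide 3 as large as that of A_23_P201758 was seen for 0.844% of all probes, and slide 3 did not overlap the other arrays for 14.7%. Slide, run and hybridisation cannot be told apart for these arrays, and why they stood apart was not tested.

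The treatments moved CD46 by less than this. PT-G differed from MED-CTL by 0.02 on A_23_P201758 and 0.22 on A_23_P35230, and PT by -0.40 and -0.31 (limma adjusted p = 0.891 or more in each). The PT differences were largest in run 3, at -1.26 and -1.42, where PT and MED-CTL lay on different slides. Under the run block and without the slide 5 arrays, they were -0.09 and 0.09. In the model without a block, the PT-G differences were -0.48 and -0.37 without PT-G replicate 3. They were 0.46 and 0.73 without MED-CTL replicate 3. Each of these fits kept the other of the 2 arrays of run 3, so the runs were not balanced. Run by run, PT-G differed from MED-CTL by -0.25, -0.04, 0.25 and 0.13 on A_23_P201758. On A_23_P35230 it differed by 0.02, 0.14, 0.47 and 0.24. In the model of the 4 conditions, 95% intervals of the CD46 differences reached 1.36 to either side on the log2 scale.

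C3, the protein on which the complement routes converge (chr19:6677704-6720650, GRCh38), differed little between conditions and strongly between runs. Its probe A_23_P101407 read 11.74, 11.51, 10.13 and 10.43 in MED-CTL and 11.58, 11.61, 10.24 and 10.38 in p31-43. It read 11.77, 11.89, 10.55 and 10.43 in PT and 11.78, 11.88, 10.18 and 9.92 in PT-G. All 8 arrays of runs 1 and 2 (11.51 to 11.89) lay above all 8 of runs 3 and 4 (9.92 to 10.55).

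The mean of C3 fell by 1.44 from the early to the late runs, 2.71-fold lower. Only 0.227% of all probes differed as much between the early and late runs, and 6.3% of probes had no overlap between them. Against that, PT-G, PT and p31-43 differed from MED-CTL by -0.01, 0.20 and 0.00. Under the run block the 95% intervals were -0.28 to 0.25, -0.06 to 0.47 and -0.26 to 0.26, and the limma adjusted p-values 0.974, 0.365 and 0.998.

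C5, which is cleaved to an inflammatory fragment and to the first piece of the membrane attack complex (chr9:120952335-121074865 on the minus strand, GRCh38), moved the other way between runs. Its probe A_23_P71855 read 8.65, 9.34, 10.20 and 10.13 in MED-CTL and 8.70, 9.36, 10.06 and 10.04 in p31-43. It read 8.80, 9.29, 9.84 and 9.78 in PT and 8.61, 9.18, 10.03 and 10.02 in PT-G. Run 1 was the lowest in each condition, and no early array (8.61 to 9.36) reached a late one (9.78 to 10.20).

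The late runs stood 1.02 above the early ones for C5, or 2.03-fold, a size that 1.15% of all probes reached. PT-G was lower than MED-CTL in all 4 runs, with differences of -0.04, -0.15, -0.17 and -0.11 and a mean of -0.12 (SE 0.43, limma adjusted p = 1, and 0.538 under the run block). Runs are known only by the date in the scanner output, and the labels give no passage or culture date for them. Passages, culture dates, slides and hybridisations therefore cannot be told apart as sources of the C3 and C5 differences. Nor can fewer cells of a kind be told from less RNA per cell in whole cultures.

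**Figure D4:**
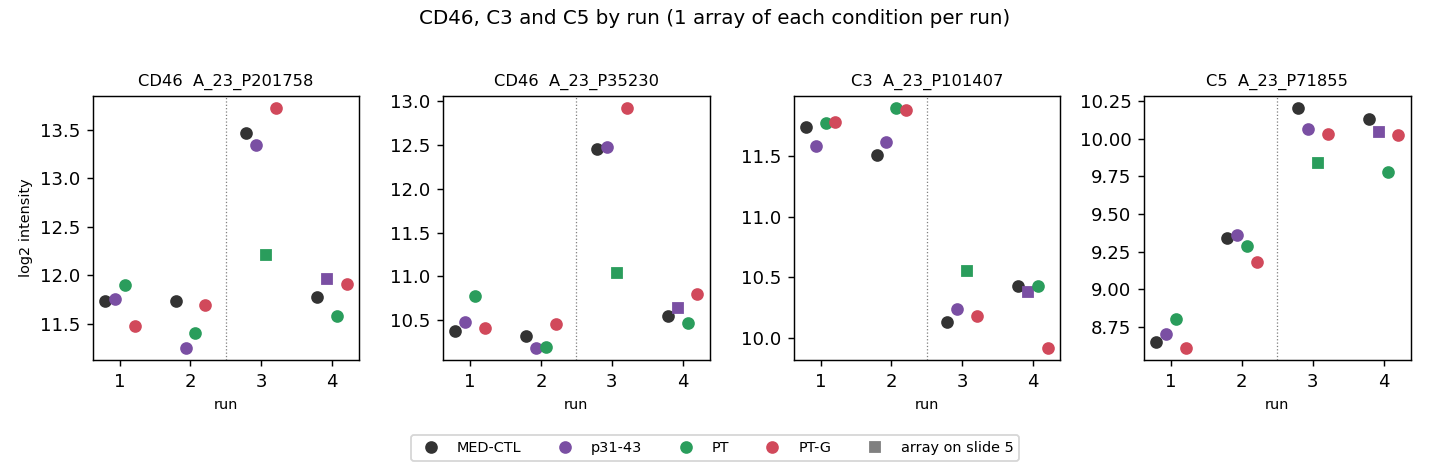
Log2 intensity (vertical axis) of the 2 bright CD46 probes, C3 and C5 in the 4 runs (horizontal axis), with 1 point per array coloured by condition, squares for the arrays on slide 5, and a dotted line between the early runs 1 and 2 and the late runs 3 and 4. C3 lies between 11.51 and 11.89 early and between 9.92 and 10.55 late, C5 goes the other way, and 3 arrays of run 3 stand above the rest for CD46.

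SERPING1, the C1 inhibitor that inactivates the first proteases of the classical and lectin routes (chr11:57597685-57614848 on the plus strand, GRCh38), was dim. Its probe A_23_P139123 read 6.32, 6.80, 6.50 and 6.57 in MED-CTL and 6.66, 6.90, 6.63 and 6.95 in p31-43. It read 6.49, 6.81, 6.92 and 6.54 in PT, the last of them not well above background, and 6.55, 6.75, 6.44 and 6.38 in PT-G. The p31-43 cells were higher in all 4 runs, by 0.34, 0.10, 0.13 and 0.38, with overlapping ranges. The mean difference of 0.24 did not pass (SE 0.13, limma adjusted p = 1, and 0.806 under the run block, at a nominal p of 0.0392). A rise in every run was seen for 8.17% of all probes in p31-43, and for 1 of the 15 members.

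CFI, factor I, the protease that cuts C3b and C4b with the help of cofactors such as CD46 (chr4:109730982-109801999 on the minus strand, GRCh38), was not well above background on 13 arrays by its brighter probe. That probe, A_23_P7212, read 6.00, 6.16, 5.97 and 6.37 in MED-CTL, 5.97, 6.25, 6.44 and 6.27 in p31-43, 5.94, 6.06, 5.99 and 6.09 in PT, and 5.95, 6.16, 6.12 and 6.05 in PT-G. Only MED-CTL of run 4 and p31-43 of runs 3 and 4 were well above background. No fold change is given for it, and the other probe was not well above background on any array.

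Single members were also set beside the whole array for likeness. After the mean of each run was subtracted, the named gene that followed the brightest CD46 probe most closely over the 16 arrays was ATAD2 (Pearson r = 0.974), with HNRPA1 next (0.969). For CD59 these were KIN (0.92) and GRHPR (0.917), for CD55 PLEKHG3 (0.931) and RTKN (0.909), for C3 MAP6D1 (0.895) and TAL1 (0.883), and for C5 OFD1 (0.929) and PLCE1 (0.906). They were picked as the highest of 19100 to 19103 candidate probes per member, so the values are a description only. Without subtracting run means, r was -0.116 for PLEKHG3, -0.403 for RTKN and -0.771 for OFD1. For the other named genes it was 0.498 to 0.974. Within CD46 the 2 bright probes followed each other closely (r = 0.95 over 16 arrays after subtracting run means). The dim CD46 probe, A_24_P282597, followed neither of them (0.06 and 0.1). The most 3′ CD59 probe did not follow any of its 3 partners (-0.37 to -0.13).

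The rest of the pathway was measured on 69 probes of 48 genes out of a list of 49, without a probe for C4A. Of these probes, 20 were well above background on all 16 arrays and 20 on none. Of the 69 probes, 1 passed the nominal threshold for PT-G against MED-CTL, 1 for PT, 1 for p31-43 and 0 for PT-G against PT, beside 3.43%, 3.64%, 0.403% and 0.0903% of all probes. At an unadjusted p under 0.05 there were 2, 3, 1 and 2, and no limma adjusted p was under 0.05. The median log2 difference was 0.01 for PT-G, -0.02 for PT and -0.03 for p31-43, and 0.01 for PT-G against PT.

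C1QA, a chain of the C1q recognition molecule, was 0.46 higher in PT-G (SE 0.15, limma adjusted p = 0.231), but its probe was well above background on only 5 arrays. COLEC11, a collectin of the lectin route, was 0.39 higher in PT (limma adjusted p = 0.224, 11 arrays above background). C5AR2, a receptor for the C5a fragment that is listed on the array as GPR77, was above background throughout. It read 7.15, 7.03, 7.03 and 7.22 in MED-CTL and 6.90, 6.73, 6.85 and 6.82 in p31-43, lower in all 4 runs and without overlap. The difference was -0.28 (limma adjusted p = 1, and 0.553 under the run block). Such a lack of overlap in p31-43 was seen for 2 of the 69 probes and for 1.37% of all probes. In PT the C5AR2 difference from MED-CTL was -0.19 (limma adjusted p = 0.132 under the run block).

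Under the run block, 3 of the 69 probes passed the nominal threshold in PT-G, 2 in p31-43 and 1 between PT-G and PT. Of all probes, 9.11%, 1.38% and 0.322% passed in the same order. The genes were named after their values were seen. In PT-G these were C1QA, THBD and C4BPB, the gene for the beta chain of the inhibitor C4b-binding protein. C4BPB read 13.49, 13.24, 12.99 and 13.11 in MED-CTL and 13.17, 12.95, 12.55 and 12.48 in PT-G. It was lower in each run, with a mean difference of -0.42 (limma adjusted p = 0.34, and 0.0488 under the run block). In PT the C4BPB difference from MED-CTL was -0.33 (limma adjusted p = 0.108 under the run block), and PT-G against PT was -0.09 (0.911). THBD, thrombomodulin, was 0.30 higher in PT-G (limma adjusted p = 0.0556 under the run block) and 0.22 higher in PT (0.141). PT-G against PT was 0.08 for THBD (0.901). The others were C5AR2 and C2 in p31-43 and the dim CD93 between PT-G and PT. C2 passed only on A_32_P162183, at -0.29, and its other probes differed by -0.01, -0.15 and 0.08. COLEC11 in PT kept its nominal call under this block (limma adjusted p = 0.0413).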

How the data were processed

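Gene expression was measured on 16 single-colour arrays, 4 per condition. The authors scanned them with Feature Extraction, which gave linear intensity values per spot that are not yet comparable between arrays. The deposited log2 values differ by at most 5e-09 from the median foreground after quantile normalization over all spots, with no background correction, and are used here. Quantile normalization gives every array the same distribution, so a shift of all genes cannot be seen. The other deposited columns used mark controls, outliers and spots well above background.

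Of 45015 spots, 1639 controls were left out, as were the 1774 spots marked as outliers over all arrays. Spots of 1 probe were averaged, and 18 probes lacking 3 unmarked values in some condition were dropped. The other 40982 were fitted by condition (limma 3.58.1, R 4.3.3, 12 residual and 1.9 prior degrees of freedom, 2-sided tests). The threshold was a nominal p under 0.01, with Benjamini-Hochberg adjustment over all probes beside it. Runs were read from the scanner output. MED-CTL replicates 1 and 2 of the labels belong to runs 2 and 1. Arrays of the same replicate number deviated together for PT-G with MED-CTL (r of 0.396 to 0.858) and for p31-43 with MED-CTL (0.263 to 0.706), and the methods describe independent experiments. For PT with MED-CTL (-0.015 to 0.41) and PT-G with PT (0.04 to 0.696) the numbers did not pair all arrays. Runs did not do so either, at -0.015 to 0.619 and 0.04 to 0.696, with run 3 the lowest in both. Alternatives changed the normalization, background, foreground, filters, blocks and arrays included. The models were tested on simulated data.

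All probes of the members are accounted for. Values per array are given for the brightest probe of each member and for probes that passed in any comparison or alternative named. Other complement genes are named where they passed, except for a result that is not reported here. Members and lists were chosen with earlier results of these data known. Promoters came from RefSeq (GRCh38.p14).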

Additional observations from a re-analysis of the deposited data

Results flagged for a closer look

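In 60 groups of 4 arrays, 5 had an array far from the other 3 of its condition, and chance gives about 1 in 20. For CD46 these were MED-CTL replicate 3 at 13.47 on A_23_P201758, where the others lay at 11.73 to 11.78, and MED-CTL replicate 3 at 12.45 and PT-G replicate 3 at 12.92 on A_23_P35230, where the others lay at 10.32 to 10.55 and 10.41 to 10.80. All of these are on slide 3. For CD55, MED-CTL replicate 4 stood at 12.91 on A_24_P188377, above 12.37 to 12.42, and PT-G replicate 4 at 6.55 on the splice-form probe A_23_P312008, below 6.85 to 6.88.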

How the results depend on the processing

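The number of member probes past the nominal threshold moved only with the blocks. For PT-G against MED-CTL it was 0 without a block, 2 with the replicate block, 2 with the run, 2 with the slide, 1 with the early and late batch, and 2 with the run and without slide 5. For PT against MED-CTL it was 0 without a block, 1 with the replicate block, 2 with the run, 1 with the slide, and 1 with the run and without slide 5. For p31-43 it was 1 with the slide and 1 with the run and without slide 5, CD59 A_24_P639441 both times. For PT-G against PT it was 0 throughout. Leaving out single arrays gave 0 to 0 in each. The replicate block, which pairs arrays by the labels' numbers, changed no other call of a member. The 2 settings without slide 5, the tests of probe differences and the run block for the other complement genes were added after the data were seen.

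Of 1928 recomputed differences 145 changed sign, none of them past the threshold before or after. CD59 A_24_P784765 stayed between 0.32 and 0.68 in PT-G and CD55 A_23_P374862 between 0.23 and 0.41. Median scaling moved the median of all probes to -0.109 in PT. Over all settings the probes past the nominal threshold ranged from 886 to 4996 for PT-G, 1074 to 4332 for PT, 80 to 1526 for p31-43 and 2 to 209 for PT-G against PT. Dim probes (CFI, SERPING1, 1 of CD46 and 1 of CD55) limit what signal over background can show.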
